A study of Mus musculus with 4 samples.

Results

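Among the sorted hematopoietic stem cells (HSC), clusters c3 and c4, of the 7 in the authors' tables, both had DNA replication genes above the cells outside them, and c4 also most genes of mitosis. They are set against each other here, gene by gene, as the log2 fold change of c3 minus that of c4. Of 20062 genes in both tables, 18067 were kept. The other 1995 sat at the lower limit of -4 in both, and no gene sat at the upper limit of 4 in both. The deposited fold changes were cut at these limits, so a value there stands for at least a 16-fold difference. Of the genes kept, 2385 had one value at a limit. The cells came from bone marrow of Gfp-Lc3 mice, isolated at steady state from 2 samples labelled old and 2 labelled young. The Gfp-Lc3 transgene, carried by every sample, makes autophagosomes visible through a fluorescent tag on their protein LC3. The tables name no sample, so age is not analysed here, and neither replicate spread nor cell number nor depth is known. Here a call means an adjusted p-value below 0.05 in the authors' deposited table. A gene is counted as expressed where its mean over all cells reached the median of all genes, as 10018 of those kept did.

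A dividing cell copies its DNA in S phase and parts it in mitosis. Before S phase, cyclin D and cyclin E with their kinases free the E2F factors, which switch on the genes of origin licensing, nucleotide synthesis and the replication fork. Late in the cycle, cyclin A and cyclin B with the kinase Cdk1 drive mitosis, and a different group of genes builds the spindle and the kinetochores. Most adult HSC rest outside the cycle, and their progeny divide faster as they commit to a lineage.

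Both clusters were set by the authors against all cells outside them, so c4 lay in the reference of c3 and c3 in that of c4. The estimated shares of cells were 12.5% for c3 and 10.8% for c4. From these shares and the overall means a direct log2 ratio of c3 to c4 was rebuilt, and also the ratio of each to the cells in neither cluster. Where c4 sat at the upper limit, its level is a lower bound. The rebuilt c3 to c4 ratio then gives the most that c3 could have reached beside c4, and the ratios to the cells in neither are lower bounds. The difference itself has no test, and the calls describe cells that were clustered on their own expression.

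The 5 marker genes lay on the 2 sides of the contrast, as they were chosen to do. Ung encodes the uracil-DNA glycosylase that clears uracil from newly made DNA, and it stood at the upper limit of 4 in c3 and at -1.63 in c4 in the authors' deposited tables. Mcm5, a subunit of the replicative helicase, was at 3.02 in c3 and 1.74 in c4 in the authors' deposited tables. Car1, a carbonic anhydrase of red cell precursors, was at 3.67 in c3 and, without a call, at -1.02 in c4 in the authors' deposited tables. Each of these 3 was thus higher in c3, by 5.63, 1.27 and 4.69, although Mcm5 was called higher in both clusters. Mki67 encodes the Ki-67 protein that coats mitotic chromosomes, and it was at 0.08 without a call in c3 and at the upper limit in c4 in the authors' deposited tables. Ube2c, the ubiquitin-conjugating enzyme with which the anaphase-promoting complex ends mitosis, was at -2.15 in c3 and at the upper limit in c4 in the authors' deposited tables. Their differences were -3.92 and -6.15, and for Mki67 the c3 cells stood near the average of all cells outside c3. In the rebuilt ratio of c3 to c4, Ung was at 4.30 or more, Mcm5 at 0.88 and Car1 at 3.41, and Mki67 at -3.24 or less and Ube2c at -5.18 or less.

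On GRCm38 (GENCODE vM21), the protein-coding genes lie on chromosome 5 from 114130386 to 114139323 for Ung (plus strand) and on chromosome 8 from 75109569 to 75128439 for Mcm5 (plus strand). Car1 lies on chromosome 3 from 14766216 to 14808368 (minus strand), Mki67 on chromosome 7 from 135689784 to 135716361 (minus strand) and Ube2c on chromosome 2 from 164769898 to 164778822 (plus strand). The promoter windows of 4 of the 5 genes are shown because genes of replication are known to be read by E2F factors and genes of mitosis, through other words, by the DREAM and MuvB complexes. The RefSeq windows on GRCm38.p6 run 250 bases before to 50 after the start, 5′ to 3′ on the strand of the gene. They are chr5:114130185-114130484 (plus), chr8:75109259-75109558 (plus), chr7:135716330-135716629 (minus) and chr2:164769679-164769978 (plus) for Ung, Mcm5, Mki67 and Ube2c in that order. Capitals mark E2F words (the word TTCCCGC, the word TTCGCGC, the word TTGCCGC or the word TTGGCGC), the cell cycle homology region (CHR, TTTGAA), and CCAAT, each on either strand. Words may overlap, as in Mcm5.
Ung: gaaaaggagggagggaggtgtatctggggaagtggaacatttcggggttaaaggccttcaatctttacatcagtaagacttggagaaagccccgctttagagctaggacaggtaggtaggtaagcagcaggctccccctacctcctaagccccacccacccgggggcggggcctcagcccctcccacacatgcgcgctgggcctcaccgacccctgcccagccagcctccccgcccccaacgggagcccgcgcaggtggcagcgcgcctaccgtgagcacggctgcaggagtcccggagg
Mcm5: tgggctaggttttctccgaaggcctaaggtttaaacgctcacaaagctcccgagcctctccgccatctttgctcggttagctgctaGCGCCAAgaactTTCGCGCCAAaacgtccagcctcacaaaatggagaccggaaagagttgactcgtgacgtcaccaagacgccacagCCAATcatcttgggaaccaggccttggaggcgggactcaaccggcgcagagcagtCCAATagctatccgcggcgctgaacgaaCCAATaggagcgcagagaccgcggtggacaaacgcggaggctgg
Mki67: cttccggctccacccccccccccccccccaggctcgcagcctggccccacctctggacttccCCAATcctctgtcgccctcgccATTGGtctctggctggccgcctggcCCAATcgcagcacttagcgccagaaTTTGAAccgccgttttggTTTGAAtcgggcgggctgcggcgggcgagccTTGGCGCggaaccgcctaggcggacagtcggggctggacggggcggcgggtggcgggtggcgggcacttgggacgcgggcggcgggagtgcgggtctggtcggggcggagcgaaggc
Ube2c: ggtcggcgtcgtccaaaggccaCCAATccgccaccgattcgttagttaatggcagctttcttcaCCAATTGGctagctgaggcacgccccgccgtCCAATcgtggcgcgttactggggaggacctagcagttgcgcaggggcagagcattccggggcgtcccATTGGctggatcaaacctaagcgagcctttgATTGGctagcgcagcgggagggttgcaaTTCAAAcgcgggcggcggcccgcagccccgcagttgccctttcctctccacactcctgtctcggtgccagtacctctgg
In the Mcm5 window a script found 3 E2F words, between positions -164 and -143 from the start, and no CHR word. The Ube2c window held 1 CHR word from -29 to -24, 6 CCAAT words upstream of it and no E2F word. The Mki67 window held 2 CHR words, 1 E2F word and 3 CCAAT words. None of the words searched stood in the window of Ung, which had the highest difference of all expressed genes with a call.

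**Figure D1:**
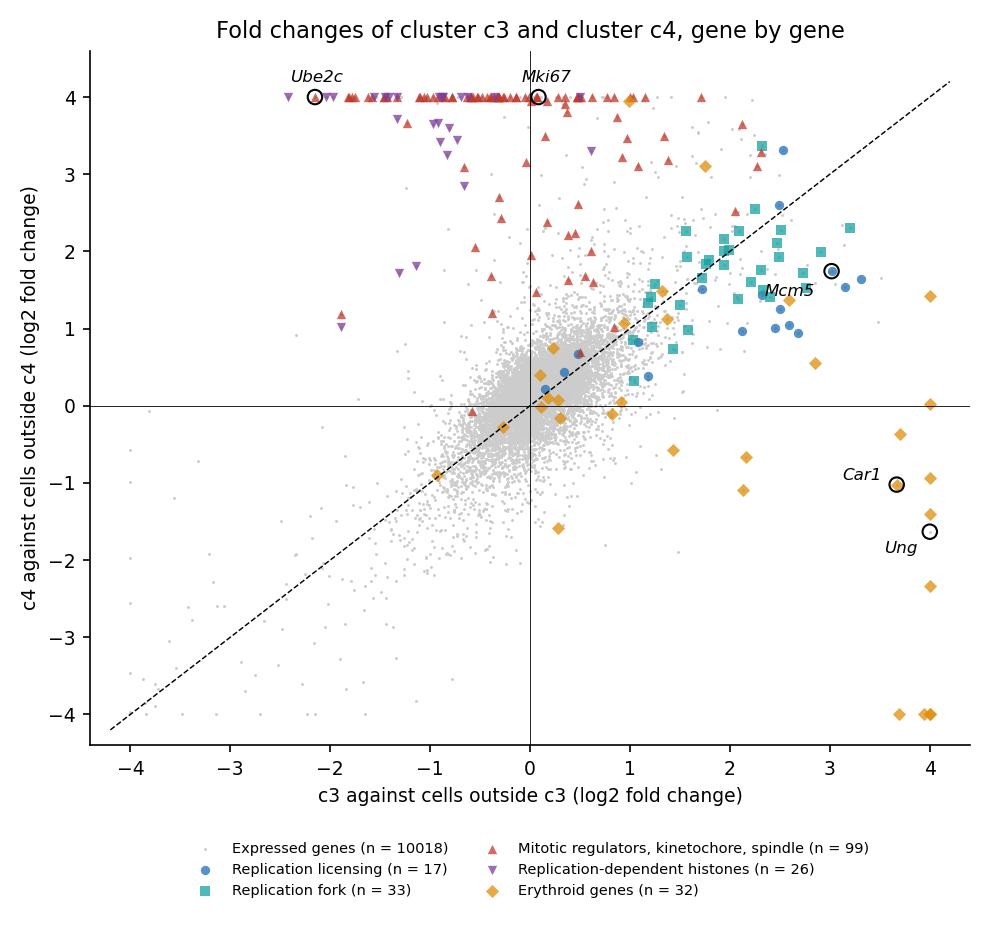
Log2 fold change of c3 (x axis) and of c4 (y axis), each against the cells outside it, for the 10018 expressed genes in grey and for the members of 7 gene lists in colour, weakly expressed members included. Rings mark the 5 marker genes and the dashed line equal values. Of 17 licensing genes 12 lie below the line, fork genes along it, and mitotic and histone genes along the upper limit of c4.

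Over all 18067 genes the difference had a median of -0.07, with quartiles at -0.42 and 0.40. Genes called higher made up 20.1% for c3 and 27.0% for c4, and genes called lower 11.1% for c3 and 11.6% for c4. Expressed genes were called more often. Of these 10018, 3261 were called higher in c3 and 4429 in c4, and 1711 and 1670 lower. Most lists below hold mainly expressed genes, for which the shares of all genes are a low yardstick. A difference of 1 or more was found for 2459 genes, 13.6%, and one of -1 or less for 2269 genes, 12.6%. Most of these were weak genes: 196 of the 2459 and 326 of the 2269 were expressed. Neither cluster's call covered 1948 of the 2459 genes and 1689 of the 2269, and those genes carry no call behind their difference.

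Genes called higher in both numbered 2674, 14.8%, and genes called lower in both 1044, 5.78%. Of the 10018 expressed genes, 2511 were called higher in both and 896 lower in both. Opposite calls were rarer, with 134 genes, 0.742%, called higher in c3 and lower in c4, and 238 genes, 1.32%, called lower in c3 and higher in c4. Both tables use mostly the same reference cells, so calls made in both are a description and not independent of each other. With a fold change of at least 1 (log2) in each direction, 5 genes remained of the 134, namely Ung, the DNA alkylation repair gene Alkbh2, and the weakly expressed Fjx1, Fam20c and Tshz3, which were named after their values were seen. Of the 238, 55 remained, and 27 of them belonged to the mitotic or histone lists. Histone genes outside these lists, such as Hist1h3f, Hist1h2bn and Hist1h2af, were among the rest.

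The ends of the contrast, among expressed genes with a call, held different kinds of genes. The 12 lowest differences, from -5.56 for Hist1h1b to -6.42 for Hist1h3b, were all mitotic or histone genes. Besides members described with their lists they included Cdkn3, a phosphatase of the mitotic kinase, at -2.03 in c3 and at the upper limit in c4 in the authors' deposited tables. All 12 were called lower in c3 and sat at the upper limit in c4. The 12 highest differences ran from 1.93 for Zmynd19 to 5.63 for Ung and were mixed. Replication and cycle genes stood there (Ung, E2f1, Ccnd1), red cell genes (Car1, Hba-a1) and the DNA repair gene Alkbh2, at 1.48 in c3 and -1.89 in c4 in the authors' deposited tables. So did the neurofilament gene Nefh, at 1.31 in c3 and -0.82 in c4, and Zmynd19, at 1.87 in c3 and, without a call, -0.06 in c4, in the authors' deposited tables. Others of the 12 were low in both clusters and lower in c4. The myosin chaperone gene Unc45b was at -0.79 in c3 and -3.55 in c4, Tmem150a at -1.65 and at the lower limit, and the stress pseudokinase gene Trib3 at -1.34 and -3.27, in the authors' deposited tables.

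The replication machinery was what the clusters had in common. All 33 genes of the replication fork, the polymerases, primases, clamp, clamp loaders and GINS proteins that copy DNA, were called higher in both, against 14.8% of all genes. Their medians were 1.94 in c3 and 1.76 in c4 in the authors' deposited tables, and the median difference was 0.19. Pcna, the sliding clamp, was at 2.21 in c3 and 1.60 in c4 in the authors' deposited tables. Against the cells in neither cluster, the list's median rebuilt log2 ratio was 2.51 for c3 and 2.41 for c4. Only 2 members differed by 1 or more, Gins2 (1.24) and Timeless (1.01), and 1 by -1 or less, the checkpoint mediator Clspn (-1.04).

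Among the expressed genes highest in both clusters were Mcm10, Gmnn, Fignl1, Exo1, Cenps, Tcf19, Ccne2, Clspn and Cenpk, at 2.31 to 3.12 in c3 and 2.34 to 3.36 in c4 in the authors' deposited tables. Against the cells in neither cluster these came to 3.32 to 5.70 for c3 and 3.47 to 6.22 for c4. Gmnn encodes geminin, which is present from S phase to mitosis and blocks a second round of licensing, and its values of 2.50 in c3 and 2.61 in c4 in the authors' deposited tables were close to each other.

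Within this shared programme, the licensing step leaned to c3. Of 17 licensing genes 15 were called higher in both, against 14.8% of all genes. The medians of the list were 2.45 in c3 and 1.05 in c4 in the authors' deposited tables. The median difference was 0.89, and 8 of the 17 differed by 1 or more, against 13.6% of all genes and 1.96% of expressed genes. The ring subunits Mcm2 to Mcm7 all stood higher in c3, from a difference of 1.74 for Mcm2 to 0.89 for Mcm7. Cdt1, which loads the helicase, was at 3.16 in c3 and 1.53 in c4 in the authors' deposited tables, and Cdc6, its partner, differed by 1.15. Orc1, an origin recognition subunit and a weakly expressed gene, differed by 1.67. The 5 members below 0 were its partners Orc3 (-0.19), Orc4 (-0.06) and Orc5 (-0.10), geminin (-0.11) and Mcm10 (-0.78), which acts after the helicase is loaded. In the rebuilt ratio the list median was 0.68.

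Genes of the G1 to S transition lay on both sides. Cyclin D1 (Ccnd1), which answers growth signals, was at 0.75 in c3 and -1.80 in c4 in the authors' deposited tables, and Ccnd2 at 0.05 without a call in c3 and -1.51 in c4. Ccnd3 was called in neither, with a difference of -0.02. E2f1 was at 3.48 in c3 and 1.09 in c4 in the authors' deposited tables, while its relative E2f2 leaned to c4 with a difference of -1.66. The cyclin E genes were high in both, with differences of 1.31 for Ccne1 and 0.78 for Ccne2. Dbf4, which activates the origin-firing kinase Cdc7, was near 0 in c3 at 0.09 without a call and at 2.60 in c4 in the authors' deposited tables. The list of 20 genes had a median difference of 0.18, with 5 members at 1 or more and 2 at -1 or less. The shares were 13.6% and 12.6% of all genes, and 1.96% and 3.25% of expressed genes.

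Nucleotide supply and DNA repair divided in the same manner. Of 20 nucleotide supply genes, 19 were called higher in both, against 14.8% of all genes, and the median difference was 0.35. The folate cycle enzyme Shmt1 stood higher in c3 by 1.16. Both subunits of ribonucleotide reductase and the thymidine kinase stood higher in c4, with differences of -1.90 for Rrm2, -1.16 for Rrm1 and -1.74 for Tk1. Of 27 repair genes, 24 were called higher in both, against the same 14.8%, and the median difference was -0.28. Ung, the chromatin remodeler Hells (1.85), the checkpoint kinase Chek1 (1.25) and Dscc1 (1.06) lay on the c3 side. On the c4 side were 8 genes at -1 or less, among them Fancd2 (-3.50), Bard1 (-1.62) and Brca1 (-1.34) of crosslink repair and homologous recombination, and the repressor E2f8 (-2.59). Fancd2 and E2f8 sat at the upper limit in c4. Differences of -1 or less were found for 12.6% of all genes and 3.25% of expressed genes.

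**Figure D2:**
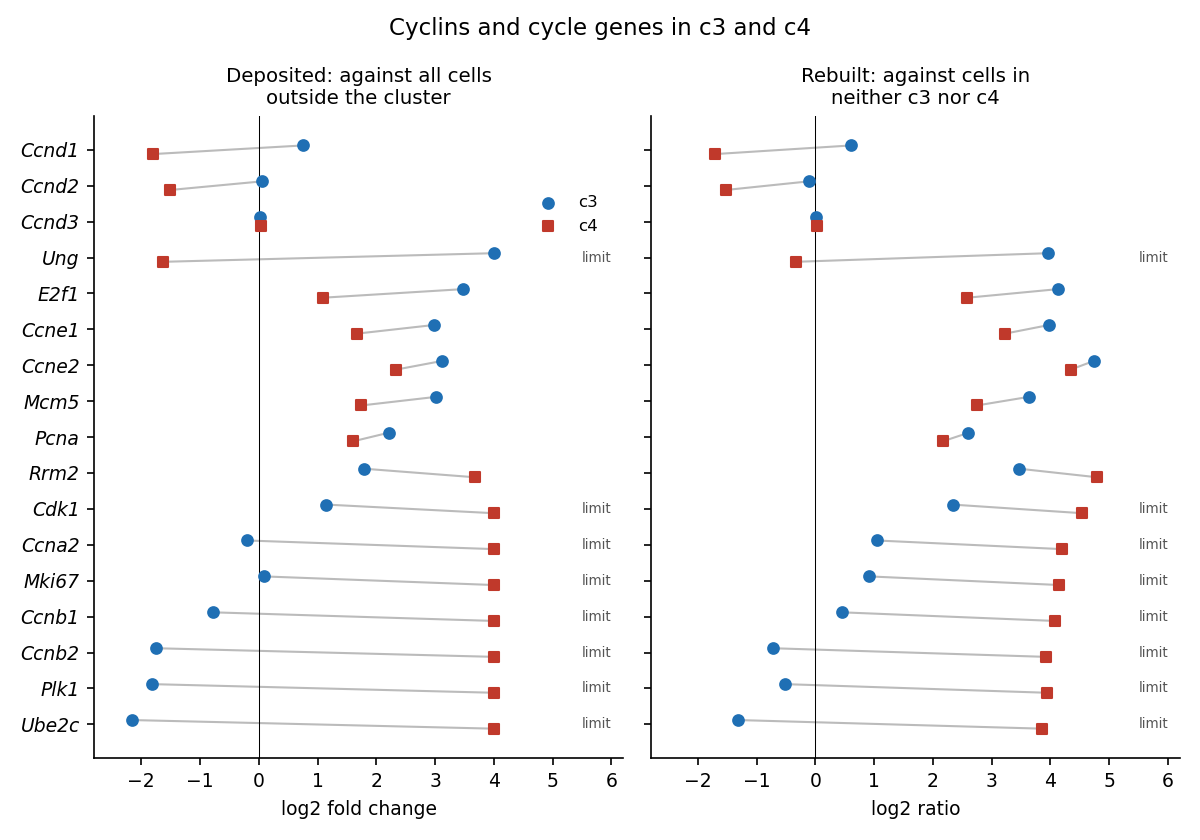
Values of c3 (circles) and c4 (squares) for 17 cycle genes, ordered by the phase in which they are known to act, as log2 fold changes against all cells outside each cluster (left) and as rebuilt log2 ratios to the cells in neither (right). "Limit" marks genes with a value at 4, whose rebuilt ratios are lower bounds. Ccna2, Mki67 and Ccnb1 lie at or below 0.08 for c3 on the left and above 0 on the right.

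Genes of the mitotic programme lay far on the c4 side. In the 4 lists of mitotic regulators, kinetochore and checkpoint, spindle and cytokinesis, and chromosome condensation, all 121 genes were lower in c3 than in c4, and 111 of them by 1 or more. A difference below 0 was found for 54.8% of all genes and 61.3% of expressed genes. One of -1 or less was found for 12.6% and 3.25%. The joint median was 0.05 in c3 and 4 in c4 in the authors' deposited tables, where 66 genes sat at the upper limit in c4. Among regulators, Plk1, the kinase of mitotic entry, was at -1.81 in c3 and Ccnb2 (cyclin B2) at -1.75, and both at the upper limit in c4, in the authors' deposited tables. Cdk1 was at 1.15 in c3 and at the upper limit in c4 in the authors' deposited tables, so that the kinase was higher in c3 than outside it although cyclin B was not.

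The parts of the spindle and the kinetochore showed the same contrast to different degrees. The median difference was -4.36 over 35 spindle genes, and -2.87 without values at a limit, with Hmmr at -5.82 and the kinesins Kif20a and Kif2c at -5.78 and -5.58. It was -3.38 over 31 kinetochore genes, where the centromeric histone Cenpa reached -5.62. Zwint (-0.20) and Cenpk (-0.97) were among the 3 kinetochore genes with a gap under 1. It was -3.52 over 33 regulators, with 29 at -1 or less, and the least separated were Wee1 (-0.18), the inhibitory kinase that holds Cdk1 back, and its relative Pkmyt1 (-0.48). Chromosome condensation genes had the smallest gap of the 4 lists, with a median of -1.95. Among these 22 genes, 18 were called higher in both, against 14.8% of all genes.

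How low c3 stood depended on the cells it was set against. Of the 121 genes, 58 had a value below 0 in c3 in the authors' deposited tables. Calls of lower covered 39 of the 121, against 11.1% of all genes. Against the cells in neither cluster, 41 of those 58 and 22 of those 39 had a rebuilt ratio above 0, and the joint median for c3 was 1.00. The median for c4 was 4.08, and where c4 sat at the limit these ratios are lower bounds. Ccnb1 was at -0.78 in c3 in the authors' deposited tables and at 0.45 or more against the cells in neither. For Ube2c, Ccnb2 and Plk1 the lower bound for c3 was still below 0, at -1.31, -0.72 and -0.51. The rebuilt ratio of c3 to c4 kept all 121 genes below 0, with a median of -2.55. In the other clusters the same genes had medians of -3.08 (c1), -2.43 (c2) and 1.12 (c5), in the authors' deposited tables.

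Replication-dependent histone genes were high in c4 and, unlike the fork genes, mostly low in c3. All 26 were called higher in c4, against 27.0% of all genes. All had a difference of -1 or less, from -2.70 to -6.42, against 12.6% of all genes. In c3, 20 of them were called lower, against 11.1% of all genes. Hist1h3a was the single member called higher in c3, at 0.61 in c3 and 3.31 in c4 in the authors' deposited tables. The median was -0.92 in c3 and at the limit of 4 in c4 in the authors' deposited tables, with 14 members at that limit. Against the cells in neither cluster the rebuilt median was -0.01 for c3 and 3.89 for c4. Slbp, which binds the stem-loop that ends these RNAs in place of a poly(A) tail, differed by 0.19 and was called higher in both. The histone genes are near-identical copies, so the split of reads between them is uncertain, and the capture of RNA without a poly(A) tail was not tested.

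Of 7 genes of CDK inhibitors, which hold the cycle back, 6 had a difference below 0, against 54.8% of all genes. In c3, 1 was called higher and 3 lower, against 20.1% and 11.1% of all genes, and in c4, 4 higher and 1 lower, against 27.0% and 11.6%. The median difference was -2.20, and -0.58 over the expressed members. The p18 and p19 inhibitors of cyclin D kinases leaned to c4, with differences of -2.39 for Cdkn2c and -2.20 for Cdkn2d. Cdkn1a (p21) was at 0.90 in c3 and 0.74 in c4 in the authors' deposited tables. Cdkn1c (p57), known for holding HSC at rest, was at -0.62 in c3 and -0.30 in c4 in the authors' deposited tables. Cdkn1b (p27) was at -0.46 in c3 and, without a call, 0.12 in c4 in the authors' deposited tables.

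**Figure D3:**
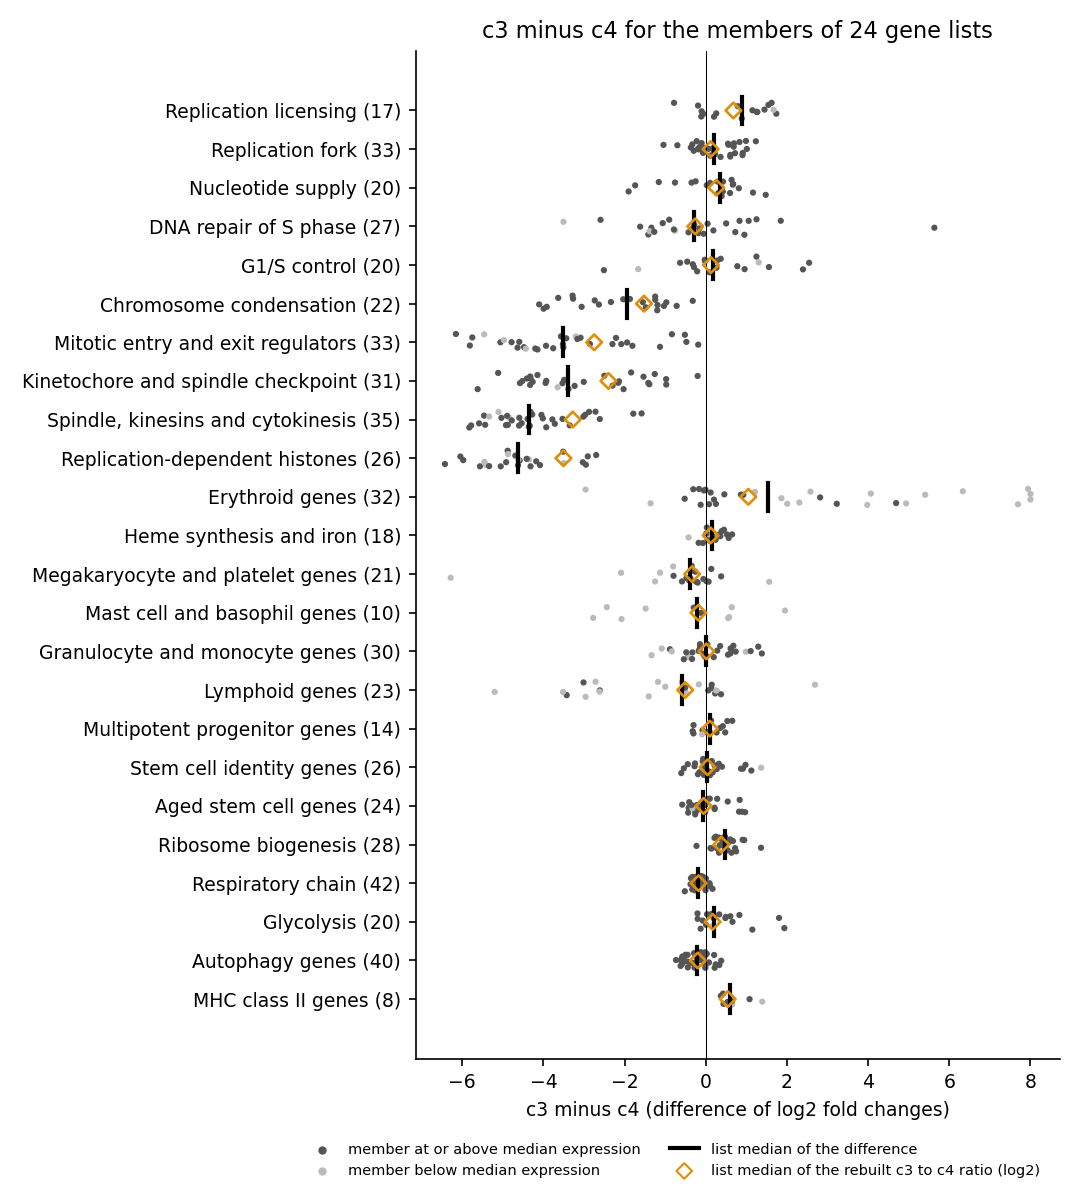
Difference of c3 minus c4 (log2 fold changes) for each member of 24 gene lists, with the number of members in brackets. Dark points are expressed genes, pale points weaker ones, bars list medians and diamonds the median of the rebuilt c3 to c4 ratio. All members of the 4 mitotic lists and the histones lie left of 0, the medians of licensing and ribosome biogenesis right of it, and most pale erythroid members far right.

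The promoter windows were searched list by list. E2F words stood in 57.9% of 19 licensing windows, 63.6% of 33 fork windows and 60% of 20 repair windows, against 17.2% of 10127 windows of expressed genes. The CHR word stood in 5.26%, 15.2% and 10% of the same windows, against 12.1% of those of expressed genes. Nucleotide supply windows held E2F words in 45% and CHR in 10% of 20, and G1 to S windows both, in 40% and 35% of 20. In the mitotic lists CHR stood in 69.4% of 36 spindle windows, 50% of 26 regulator windows and 41.9% of 31 kinetochore windows. E2F words stood in 19.4%, 11.5% and 19.4% of these. Chromosome condensation windows held both, at 40% for E2F and 60% for CHR. CCAAT stood at least 2 times in 50% of the regulator windows, against 14.5% for expressed genes. The share was 45% for condensation, 41.7% for spindle and 35.5% for kinetochore windows. It was 36.4% for fork, 31.6% for licensing, 30% for repair, 15% for G1 to S and 10% for nucleotide supply windows. Windows of cholesterol synthesis genes reached 52.9%, so repeated CCAAT was not particular to the mitotic lists. Among all expressed genes with a call in either table, CHR stood in 42.6% of 272 windows where the difference was -1 or less and in 9.94% of 181 windows where it was 1 or more. E2F words stood in 26.1% and 16.6% of these, and in 27.3% of 2516 windows of expressed genes called higher in both. Matches are letters in a window and not binding sites, several windows belong to one gene, and the lists hold known targets of these factors.

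**Figure D4:**
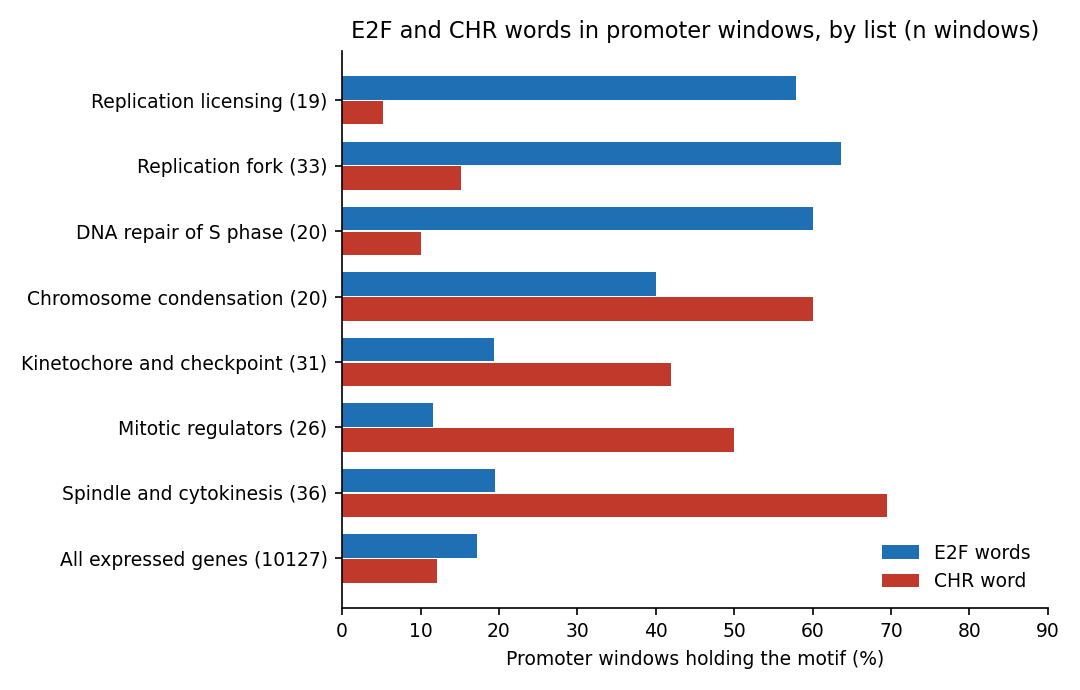
Share of promoter windows (per cent) that hold an E2F word (blue) or the CHR word (red) on either strand, for 7 lists and for all expressed genes, with the number of windows in brackets. E2F shares reach 57.9% to 63.6% in the licensing, fork and repair lists, and CHR shares 41.9% to 69.4% in the 4 mitotic lists.

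The erythroid difference rested on 3 expressed genes and on weakly expressed ones. Of 32 erythroid genes kept, 20 were called higher in c3, against 20.1% of all genes, and 8 in c4, close to the 27.0% of all genes. The median difference was 1.54. Of the list, 16 genes were weakly expressed, and 14 of these 16 differed by 1 or more, against 28.1% of all weak genes kept. Among the 16 expressed members, 3 differed by 1 or more, against 1.96% of all expressed genes, and the median was 0.16. Those 3 were Car1, and the alpha globin genes Hba-a2 (3.23) and Hba-a1 (2.82), near-identical copies whose reads can be split. Hba-a2 was called in neither cluster, at 2.14 in c3 and -1.09 in c4 in the authors' deposited tables. Hba-a1 was at 2.16 in c3 and, without a call, at -0.66 in c4 in the authors' deposited tables.

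A pair of membrane genes of late red cell precursors lay at the far end. Rhd and Cldn13 were at the upper limit in c3 and, without a call, at the lower limit in c4 in the authors' deposited tables. Both were weakly expressed, and 9 of the 32 members had a value at a limit. The transcription factors behaved otherwise. Klf1, also weakly expressed, was called higher in both, at 2.59 in c3 and 1.37 in c4 in the authors' deposited tables. Gata1, likewise weakly expressed, was called higher in both and was lower in c3, at 1.75, than in c4, at 3.11, in the authors' deposited tables. The receptor gene Epor was at 1.37 in c3 and 1.12 in c4 in the authors' deposited tables, and Car2, the most strongly expressed member, at 0.23 in c3 and 0.75 in c4. Erfe, an erythroblast hormone and a weakly expressed gene, was the member furthest to the c4 side, at -2.96. It was called higher in c4 and had no call in c3. Both factors and the receptor gene were thus called higher in each cluster, unlike Rhd, Cldn13 and Car1, which had a call in c3 and none in c4. Words of the GATA factors (AGATAA or TGATAA, either strand) stood in 51.9% of 27 erythroid windows, against 9.99% of those of expressed genes. They also stood in 46.2% of 13 mast cell and basophil windows and 33.3% of 15 megakaryocyte windows, so they were not particular to the erythroid list.

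**Figure D5:**
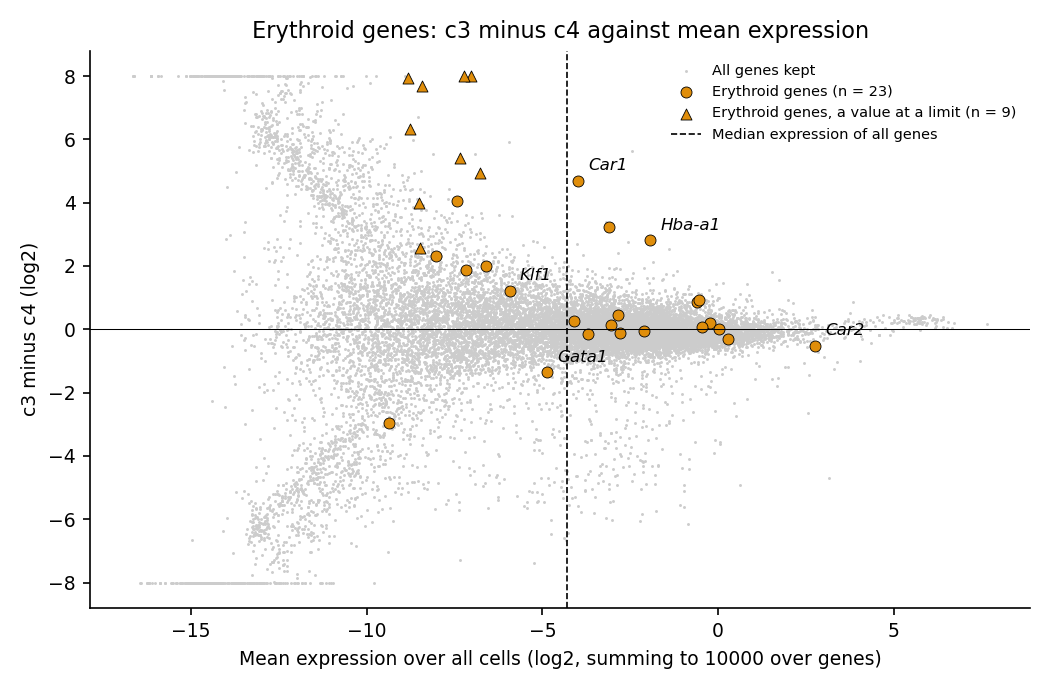
Difference of c3 minus c4 (log2, y axis) against the deposited log2 mean expression (x axis) for all genes kept (grey) and 32 erythroid genes (orange), with triangles where a value sat at a limit. The dashed line is the median expression of all genes. Right of it, 3 erythroid genes lie above 1, and left of it 14 do.

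Heme synthesis and iron genes had a median difference of 0.16 and none reached 1. The transferrin receptor gene Tfrc was at 1.22 in c3 and 0.57 in c4 in the authors' deposited tables. Megakaryocyte genes, 15 of the 21 expressed, had a median difference of -0.38. Of the 21, 16 were below 0, against 54.8% of all genes and 61.3% of expressed genes. Their calls went both ways. In c3, 8 were called higher and 7 lower, against 20.1% and 11.1% of all genes. In c4, 9 were called higher and 4 lower, against 27.0% and 11.6%. The integrin gene Itga2b was at 0.83 in c3 and 1.24 in c4, and Pf4 at 0.69 and 0.93, in the authors' deposited tables. Clec1b was at -1.42 in c3 and, without a call, -0.62 in c4 in the authors' deposited tables. Cpa3, a mast cell protease, was at 0.37 without a call in c3 and at 1.85 in c4 in the authors' deposited tables, while the list's 10 genes kept had a median of -0.20. Multipotent progenitor genes had a median difference of 0.11, with Cd48 at 0.81 in c3 and, without a call, 0.16 in c4 in the authors' deposited tables.

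Granulocyte and monocyte genes were mostly low in both clusters. Of 30 kept, 16 were called lower in c3 and 19 in c4, 15 of them in both, against 5.78% of all genes, and the median difference was -0.0027. Another 3 of the 30 were called higher in both, against 14.8% of all genes. The 10 genes lowest in both, Mmp8, Ifitm6, Clec4a2, Slfn1, Wfdc21, Mmp9, Ly6c2, Hp, Ccl6 and Fcgr3, include granule and inflammatory genes of neutrophils and monocytes. They stood at 3.84 to 4 in cluster c5 in the authors' deposited table of c5, a cluster that lies in the reference of both c3 and c4. Its part in the low values was not tested. Mpo, the neutrophil peroxidase gene, was called in neither, at -1.77 in c3 and -1.29 in c4 in the authors' deposited tables. The protease gene Ctss was less low in c3, at -1.44, than in c4, at -2.83, in the authors' deposited tables. Of 23 lymphoid genes, 18 were called in neither cluster, and the heavy chain gene Ighm was at -3.33 in c3 and, without a call, -0.72 in c4 in the authors' deposited tables.

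Markers of other cell types are set against 9542 of the 18067 genes that had a call in neither cluster. Of 10 macrophage genes, 8 were kept, with 1 called higher in c3 (Cd68, 0.59) and 1 lower in c4 (Spic, -1.20), in the authors' deposited tables. Timd4 and Marco were at the lower limit in both. Of 10 endothelial and stromal genes, 7 were called in neither, and of 10 T and NK cell genes kept, 8. The T cell receptor partners Cd3d and Cd3g were called in neither cluster. The NK granule gene Nkg7 was called higher in both, at 1.45 in c3 and 1.60 in c4 in the authors' deposited tables. The NK receptor gene Klrb1c went the other way. It was called lower in both, at -2.01 in c3 and -2.20 in c4 in the authors' deposited tables. No source used here says how doublets were treated, and the part of mixed cells in these values was not tested.

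Stem cell genes were mostly low in both clusters, and some of them were lower in c4. Of 26 stem cell identity genes, 20 were called lower in c3 and 19 in c4, 16 of them in both, against 5.78% of all genes, and the median difference was 0.04. Calls of higher covered 0 of the 26 in c3 and 3 in c4, against 20.1% and 27.0% of all genes. Of those 3, 1 was called lower in c3. Procr, the endothelial protein C receptor used to sort HSC, was at -1.57 in c3 and -2.49 in c4 in the authors' deposited tables. Ly6a (Sca-1) was at -0.76 in c3 and -1.88 in c4, and Ifitm1 at -0.96 and -1.83, in the authors' deposited tables. The self-renewal factors Hlf and Mecom barely differed, at -0.04 and -0.07. Hoxb5, a factor of long-term HSC, was lower in c3, at -1.02, than in c4, at -0.49, in the authors' deposited tables. Genes known to mark aged HSC were called lower for 18 of 24 in c3 and 17 in c4, against 11.1% and 11.6% of all genes, with a median difference of -0.06.

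Biosynthesis leaned to c3. All 28 ribosome biogenesis genes were called higher in c3 and 14 in c4, against 20.1% and 27.0% of all genes. All 28 were expressed, and of the 10018 expressed genes 3261 were called higher in c3 and 4429 in c4. A difference above 0 was found for 27 of 28, against 38.7% of all expressed genes. The median was 0.74 in c3 and 0.18 in c4 in the authors' deposited tables, and the median difference was 0.47. Srm, which makes spermidine, was at 1.28 in c3 and, without a call, -0.08 in c4 in the authors' deposited tables. Gnl3 (nucleostemin) and the methyltransferase gene Nop2 had differences of 0.95 and 0.75. The exception was the polyamine gene Odc1 at -0.23. Myc, which drives this programme, was at 0.66 in c3 and -0.30 in c4 in the authors' deposited tables. The differences were small beside those of the mitotic genes.

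Glycolysis showed a few large gaps. Among 20 genes the median difference was 0.21, and 3 reached 1, against 13.6% of all genes and 1.96% of expressed genes. They were the aldolases Aldoc (1.94) and Aldoa (1.81) and the hexokinase Hk2 (1.15). Aldoa was at -0.25 in c3 and -2.05 in c4 in the authors' deposited tables, so the gap came from a low value in c4. Pfkl, Ldha and Pkm were called higher in c3 and lower in c4, as were 0.742% of all genes. Their differences were 0.83, 0.61 and 0.50. Of the respiratory chain genes, 36 of 42 were below 0, against 61.3% of all expressed genes. Their median was -0.19, against -0.10 for all expressed genes. They were called higher for 38 in c3 and 41 in c4, against 20.1% and 27.0% of all genes, and Cox7a2 was at 0.46 in c3 and 0.97 in c4 in the authors' deposited tables.

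Genes of autophagy, the process the Gfp-Lc3 transgene makes visible, all differed by less than 1, as did all but 1.96% (1 or more) and 3.25% (-1 or less) of expressed genes. Of 40 genes, 1 was called higher and 13 lower in c3, against 20.1% and 11.1% of all genes. In c4, 12 were called higher and 9 lower, against 27.0% and 11.6%. All 40 were expressed, and expressed genes were called more often. Of the 10018 expressed genes, 3261 were called higher in c3 and 4429 in c4, and 1711 and 1670 lower. Beside these, higher calls were fewer among the 40 in both clusters. The median difference was -0.22, and 32 of 40 were below 0, against 61.3% of all expressed genes. Map1lc3b (LC3B) was at -0.52 in c3 and -0.51 in c4, and the cargo receptor Sqstm1 at -0.54 and -0.52, in the authors' deposited tables. Ulk1, the initiating kinase, was at -0.68 in c3 and, without a call, -0.24 in c4 in the authors' deposited tables. The LC3 proteases Atg4d and Atg4b were called higher in c4, at 0.59 and 0.39, and not called in c3, at -0.14 and -0.23, in the authors' deposited tables. Whether reads of the Gfp-Lc3 transgene were counted under Map1lc3b is not stated.

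All 8 MHC class II genes had a difference above 0, against 45.2% of all genes and 38.7% of expressed genes. The median was 0.59, and 3 were called lower in c3 and 7 in c4, against 11.1% and 11.6% of all genes. Cd74, the invariant chain, was at -1.06 in c3 and -2.14 in c4 in the authors' deposited tables. Interferon response genes had a median difference of -0.04, and Ifi27l2a stood apart from them at -0.86 in c3 and 1.08 in c4 in the authors' deposited tables. Immediate early genes were called lower for 13 of 23 in c3 and 10 in c4, against the same shares, with a median of -0.09. Klf6 was at -1.72 in c3 and, without a call, 0.08 in c4, and Ier2 went the other way, at -0.13 without a call in c3 and -1.13 in c4, in the authors' deposited tables. Of 20 cholesterol synthesis genes, 17 of them expressed, 15 were called higher in c3 and 9 in c4. The shares of all genes were 20.1% and 27.0%. Of the 10018 expressed genes, 3261 were called higher in c3 and 4429 in c4, so the c4 count lay close to the expressed share. The median difference was 0.33.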

How the data were processed

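Sorted hematopoietic stem cells from 4 samples were profiled by single-cell RNA sequencing. No source used here says which samples and assay gave the tables. GRCm38.p4 is the build and GSNAP, HTSeq and Scanpy are the tools named, per the submitters' processing notes, with no role stated. The 8 deposited tables hold the authors' log2 mean expression, the authors' log2 fold changes limited to -4 and 4, and the authors' deposited p-values and adjusted p-values. The authors' test, its unit and the cell filters are not stated. With cells as the unit, calls would describe cells, not mice. The values show that the reference of a cluster is the cells outside it.

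The c3 and c4 tables were joined by gene and subtracted. Shares of cells were estimated as weights that make the 7 cluster levels average to the overall level, on the scale of mean log(1 + x), by least squares over 6465 genes without a value at a limit, after a test on simulated data. The authors' c1 against c2 table served in the fit only to leave out genes at a limit. Over the same genes its fold changes were rebuilt with a median absolute error of 0.000759 (log2), or 0.00241 with linear means. No such table exists for c3 against c4, whose shares were 11.8% and 9.27% with linear means. The genes and 31 lists were chosen with earlier results of these data known.

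Named genes were the 12 highest and 12 lowest differences and the 10 highest and 10 lowest in both, among expressed called genes, up to 4 per list, and fixed markers. Others were chosen after their values were seen. A few genes that the rule names are not reported here. Promoter windows were at hand for 13911 of the 20062 genes. Python 3.11.15, pandas 2.3.3, NumPy 2.4.6, SciPy 1.17.1 and Matplotlib 3.10.9 were used.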

Additional observations from a re-analysis of the deposited data

How the results depend on the processing

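The difference turned on weak genes, limits and the shared reference. The count at 1 or more, 2459, became 1435 with a minimum of 2, 196 among expressed genes, 1338 without values at a limit and 511 among genes called in either table. The count at -1 or less, 2269, became 326 among expressed genes, 1039 without values at a limit and 580 among called genes. With expressed, called and no limit together, an alternative chosen after seeing the data, they were 189 and 233, and in the ratio rebuilt with linear means, also chosen then, 2241 and 2081. With a log2 fold change of at least 1 in size in both tables, 334 genes were higher in both, 259 lower in both, 5 higher in c3 and lower in c4, and 55 the reverse. With adjusted p under 0.01, the last 2 counts were 83 and 149. Without values at a limit, the medians were -2.14 for mitotic regulators, -1.47 for kinetochore genes and 0.25 for erythroid genes. In the rebuilt ratio the first 2 were -2.75 and -2.40. Spindle genes moved to -2.87 and -3.28 in these settings, and histones to -3.50 in the rebuilt ratio. The erythroid median was 0.16 over expressed members, and the mean of all members 2.33. The granulocyte and monocyte median of -0.0027 turned positive as a mean (0.086), over expressed members (0.039), in the rebuilt ratio (0.016) and after centring on expressed genes (0.10). Other medians near 0 changed sign too: aged HSC genes as a mean (0.051) or centred (0.043), immediate early (0.014) and interferon genes (0.062) when centred, lymphoid genes over expressed members (0.065), endothelial genes as a mean (0.29), and T and NK genes without limits (-0.15). Of 160 named genes, 157 kept their sign in the rebuilt ratio, all but Exo1 (-0.041), Mmp8 (0.0069) and Ifitm6 (0.0037). The cause of these shifts was not tested. No paired analysis was possible because the tables carry no samples. Leaving out a replicate was likewise impossible, and the depth behind each value is unknown.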
